A study of Drosophila melanogaster with 35 samples.

Results

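Wings of Drosophila pupae at 24h after pupa formation that expressed the transcription factor Cabut were compared with matched control wings. The 8 arrays of this comparison, 4 of Cbt and 4 of control wings, were those whose titles name the group and the 24h stage, out of 35 arrays in the series. Every sample was total RNA of 10 dissected wings, and the labels call the 4 samples of a group independent. All flies carried apterous-gal4 and UAS-GFP together with tubulin-Gal80temp.sens., and they were raised at 18 °C and moved to 28 °C for expression. Control flies carried no further transgene, Cbt flies also carried UAS-Cabut, and the E2F1DP flies used for reference also carried UAS-dE2F1 and UASdDP. Control and Cbt arrays at the wandering larval stage (L3) and at 36h, 4 in each group, are set beside the 24h arrays below.

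Cabut is a zinc-finger transcription factor of the Krüppel-like family, related to the TGF-beta inducible early genes of vertebrates. It is induced by ecdysone and by metabolic and stress signalling in flies. In the pupal wing the epithelial cells finish their last divisions, leave the cell cycle and then differentiate into hair-bearing cuticle-secreting cells. The E2F1 and DP proteins form the activator that drives genes of DNA replication and division.

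The construct limits what the arrays can show. The apterous driver is active in dorsal wing cells, while the RNA came from whole wings, so each sample mixed expressing dorsal with non-expressing ventral cells. In such bulk RNA, fewer cells of a type and less RNA per cell cannot be told apart.

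Each array measured 15473 transcripts, mostly with 4 or 5 probes each, as a deposited intensity that is given here as log2. The array medians lay between 9.79 and 10.02 in Cbt wings and between 9.28 and 10.02 in control wings at 24h. Control replicate 3 had the lowest median, the largest deviation from its group's mean (a root mean square of 0.661 log2 units over transcripts, against 0.395 to 0.527 on the other control arrays) and a Pearson correlation of 0.953 to 0.967 across transcripts with the other control arrays. The correlation among Cbt arrays was 0.978 to 0.989. The Cbt and control arrays at 24h lay on different slides, as read from the array file names, so no within-slide value exists.

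The deposited IDs are FlyBase transcript IDs without gene names. Only 17 of them could be tied to 1 gene and 27 to several genes, and the other 15429 are described by number only. The level of the cabut transcript, and of those of E2f1 and Dp, was not analysed here, so the genotype labels were not checked against the transgenes. None of the 42 tissue marker entries could be matched, so the wing label was not checked either.

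Cabut wings held more of many transcripts at 24h than control wings and less of fewer. A call is an adjusted p under 0.05 from limma's moderated test, adjusted by Benjamini-Hochberg over all transcripts. Of 15473 transcripts, 1209 were called (7.81%), 924 of them higher (5.97%) and 285 lower (1.84%) in Cbt wings. The median of the 924 changes was 1.30 on the log2 scale (quartiles 0.89 and 1.89), and 621 changed at least 2-fold and 203 at least 4-fold. The 285 had a median change of -0.95 (quartiles -1.32 and -0.61), with 134 changed at least 2-fold and 31 at least 4-fold. On the deposited scaling, the higher calls were therefore both more numerous and of larger median size than the lower ones.

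Among the 924, 731 had all 4 Cbt arrays above all 4 control arrays, and among the 285, 187 had all 4 below. Over all transcripts, calls or not, 998 (6.45%) lay higher and 477 (3.08%) lower without overlap. The count depended on how spread was estimated. With only the 8 arrays in the fit 443 passed, 391 higher and 52 lower. With the slide as a term 392 passed, 327 higher and 65 lower. With the slide as a random block 1220 passed, 929 higher and 291 lower. Below, the slide in the model means the slide as a term. The excess of higher calls depended on the scaling: with each array shifted to a common median, 664 were higher and 588 lower, and over all transcripts the median change moved from -0.01 to -0.20. That shift lowers every change alike, so the larger median size of the higher calls depended on the scaling as well.

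**Figure D1:**
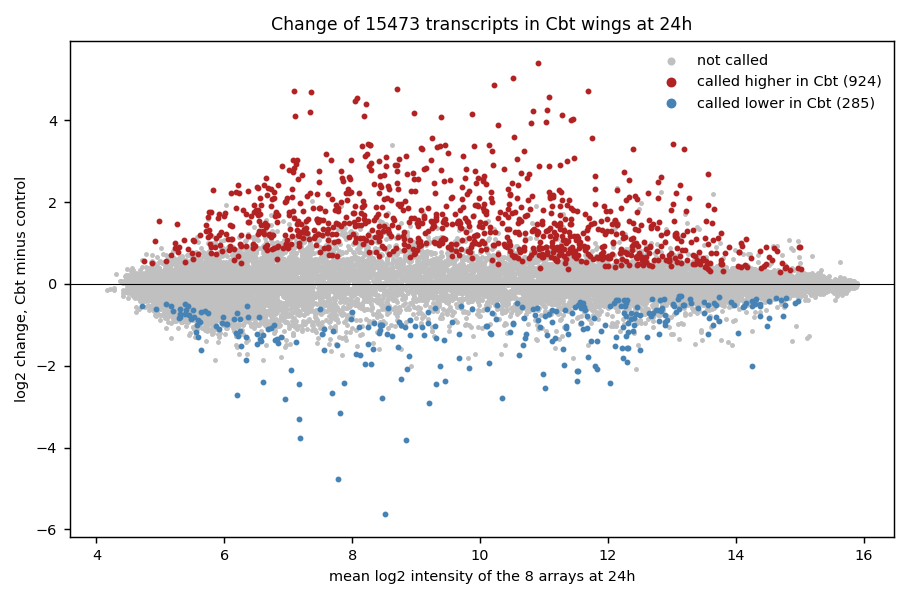
Log2 change of Cbt minus control wings at 24h (vertical axis) against the mean log2 intensity of the 8 arrays (horizontal axis), 1 point per transcript. The 924 transcripts called higher lie at all but the lowest intensities and reach changes above 5, and the 285 called lower are fewer.

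The plot of change against level shows that calls came from most of the intensity range. Some transcripts crossed from the dim end of the scale, taken as a group mean under 6.20, which is the 25th percentile of the transcript means. Of the 924, 125 were dim in control wings and above that level in Cbt wings, and 42 of these differed at least 4-fold, a size that is inexact for a dim transcript. At the other stages 57 of the 125 were above the level in control L3 wings and 34 in control 36h wings, while 50 were dim in every control group. Of the 285, 38 were dim in Cbt wings and above the level in control wings. Over all transcripts, called or not, 11642 were above the level in control wings at 24h and 11520 in Cbt wings.

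The largest changes show how separate the groups could be. Among calls without overlap whose lower mean was not dim, the 2 largest rises and 2 largest falls belonged to transcripts that could not be named. FBtr0077115 measured 7.64, 7.95, 7.62 and 9.62 in control and 13.24, 13.29, 13.95 and 13.92 in Cbt wings, a change of 5.39 (SE 0.38, limma adjusted p = 3.22e-11). All Cbt arrays lay far above all control arrays, and control replicate 4 was the highest of its group. Its level was also higher in Cbt wings at L3 (13.09 ± 0.08 against 7.34 ± 0.56, SD, n = 4) and at 36h (13.50 ± 0.20 against 7.16 ± 0.56), with limma adjusted p of 1.87e-11 and 7.34e-13. It was thus high in Cbt wings at every stage measured, and its change at 24h was not shown to differ from that at L3 (difference -0.36, SE 0.54) or 36h (difference 0.95, SE 0.54).

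FBtr0083254 measured 8.10, 8.26, 6.03 and 9.63 in control and 12.26, 11.95, 14.20 and 13.68 in Cbt wings, a change of 5.02 (SE 0.56, limma adjusted p = 1.33e-07). The groups did not overlap, although each spanned more than 2 log2 units. The change at L3 was 2.70 (limma adjusted p = 0.00903) and that at 36h was 1.16 (adjusted p = 0.274). The 36h change was smaller than the 24h change by a test of the difference itself (-3.86, SE 0.79, limma adjusted p = 0.00519). That call was lost with the slide in the model (-2.52, adjusted p = 0.94) and with only the compared groups (adjusted p = 0.0982). The 24h values that chose this transcript also enter the test, which leans it toward a larger 24h change.

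Both falls were of transcripts that rise in control wings after L3. FBtr0079498 measured 11.12, 9.24, 11.34 and 11.28 in control and 9.14, 6.70, 5.28 and 6.59 in Cbt wings, a change of -3.81 (SE 0.59, limma adjusted p = 2.83e-05). Cbt replicate 1 came close to control replicate 2, and the other arrays were well apart. In control wings its mean was 5.37 ± 0.27 at L3, under the dim level, and 10.49 ± 0.67 at 36h (SD, n = 4), and in Cbt wings it was 9.27 ± 1.13 at 36h.

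FBtr0075181 measured 10.08, 8.80, 8.67 and 9.98 in control and 6.24, 6.17, 6.09 and 6.43 in Cbt wings, a change of -3.15 (SE 0.29, limma adjusted p = 4.55e-09). The Cbt arrays agreed within 0.4 log2 units and lay below every control array. Their values were close to the dim level of 6.20, so the size of the fall is inexact. At 36h this transcript was lower by a change of -2.96 (limma adjusted p = 1.46e-08), while the change of FBtr0079498 there, -1.22, did not pass the test (adjusted p = 0.273). Both differed less at L3, where changes of -0.29 and -0.20 did not pass the test, and the 24h change was larger than that at L3 by -3.53 (limma adjusted p = 0.0127) for FBtr0079498 and -2.95 (2.46e-05) for FBtr0075181. For FBtr0079498 this stage difference did not pass with the slide in the model (adjusted p = 0.224) or with only the compared groups (0.0555). Its control mean at L3 was under the dim level, so a fall at that stage could hardly have been measured. The difference between stages for FBtr0079498 is therefore no measure of a stage effect. Both transcripts were chosen by the size of their 24h fall, so these stage tests lean toward a larger 24h change.

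The called transcripts were followed through the L3 and 36h arrays, whose levels do not enter the 24h change, although they share in its estimate of spread. The 924 transcripts had similar median levels at L3 in control (10.71) and Cbt wings (10.89), and their median change there was 0.06, against -0.01 over all transcripts. At 36h the median change was 0.64, against -0.03 over all. At L3 49 of the 924 (5.3%) were called higher and 0 lower by limma at the same threshold, where 0.504% of all transcripts were called higher and 0.265% lower. At 36h 373 (40.4%) were called higher and 28 (3.03%) lower, against 4.76% and 2.53% of all transcripts. The 36h calls thus took up a larger share of the 924 than of all transcripts, and 84.4% of the 924 had a positive change there.

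The median of the 924 on single arrays shows the course. In control wings it was 10.67 to 10.86 at L3 and 8.72 to 9.04 at 36h. In Cbt wings it was 10.86 to 11.00 at L3 and 9.71 to 10.36 at 36h. At 24h, the stage of the calls, it was 8.39 to 9.44 in control and 10.64 to 10.98 in Cbt wings. In Cbt wings the median thus stayed near its L3 level at 24h and was lower at 36h, while in control wings it was already near its 36h level at 24h. The gap at 24h follows in part from choosing the transcripts at that stage, so these 24h medians are a description.

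The 285 lower transcripts ran the other way. Their median level in control wings was 9.37 at L3, 11.33 at 24h and 11.52 at 36h, and in Cbt wings it was 10.11 at 24h and 11.19 at 36h, after 8.96 to 9.11 on single L3 arrays. The median change was -0.14 at L3 and -0.33 at 36h. At L3 16 (5.61%) were called lower, against 0.265% of all transcripts, and at 36h 65 (22.8%), against 2.53%. At 36h 5 (1.75%) were called higher, against 4.76% of all transcripts. A smaller gap at 36h than at 24h follows in part from choosing the transcripts at 24h.

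**Figure D2:**
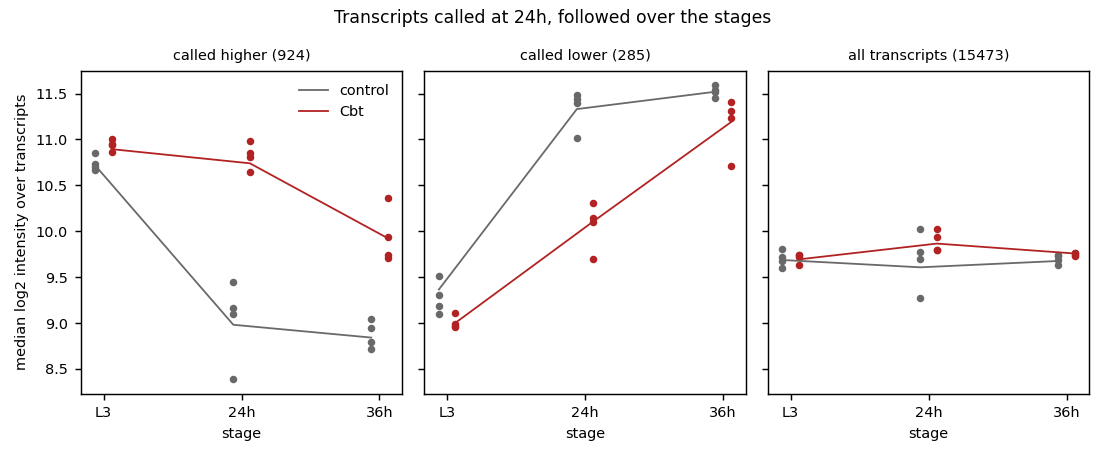
Median log2 intensity over the 924 transcripts called higher at 24h, the 285 called lower and all 15473, by stage, in control and Cbt wings. Points are single arrays and lines join the medians of the group means; the 24h levels set the changes that chose the transcripts, and the other arrays entered only the estimate of spread.

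The change was also tested for a difference between stages. Over all transcripts, 401 (2.59%) had a Cbt change at 24h that differed from that at L3, 353 of them (2.28%) larger and 48 (0.31%) smaller. A change at 36h that differed from that at 24h was found for 311 (2.01%), with 107 (0.692%) larger and 204 (1.32%) smaller. Among the 924, 338 had a larger change at 24h than at L3, and 130 had a smaller and 19 a larger change at 36h than at 24h. These last counts use the 24h arrays that chose the 924 and are a description. With the slide as a term the counts over all transcripts fell to 65 and 20, and as a random block they were 406 and 316.

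The transcripts with a change at 24h were then grouped by their course in control wings from L3 to 36h, using arrays outside the 24h comparison. Those arrays share the estimate of spread with the 24h arrays, so the calls are not fully independent. Between those stages 45.6% of all transcripts were called by limma, 24.1% as falling and 21.5% as rising, and 54.4% had no call. Of the 924 higher in Cbt wings, 530 (57.4%) fell in the control course, 147 (15.9%) rose and 247 had no call. Of the 285 lower in Cbt wings, 156 (54.7%) rose in the control course, 39 (13.7%) fell and 90 had no call. The larger share of the higher transcripts thus declined in control wings, and the larger share of the lower ones increased.

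The shift at 24h was largest among the strongest decliners. The 817 transcripts that fell at least 4-fold from L3 to 36h in control wings had median levels of 11.43 at L3, 8.74 at 24h and 7.95 at 36h in control wings. In Cbt wings their medians were 11.40, 9.76 and 8.58. At 24h 314 of them (38.4%) were higher in Cbt wings and 5 (0.612%) lower, against 5.97% and 1.84% of all transcripts, and their median change was 0.63, against -0.01 over all transcripts. Relative to the control mean, the median over these transcripts was 0.70, 0.76, 0.81 and 0.41 on the Cbt arrays and 0.00, 0.04, -0.32 and 0.28 on the control arrays. The groups did not overlap, with Cbt replicate 4 and control replicate 4 the nearest to each other.

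Of the 1026 transcripts that rose at least 4-fold in the control course, 71 (6.92%) were higher in Cbt wings at 24h, near the 5.97% over all transcripts, and 87 (8.48%) lower, against 1.84%. The balance was not stable: 40 were higher and 23 lower with only the compared groups, and 57 and 137 with median centring. Their median change was -0.17. On single arrays that median was 0.03, -0.21, -0.41 and -0.03 in Cbt wings and 0.15, -0.24, -0.15 and 0.34 in control wings, and the groups overlapped. Over all 3732 decliners the median change was 0.13, and over all 3320 risers it was -0.05, or 0.03 without control replicate 4. With arrays shifted to a common median these became -0.07 and -0.25, and the median of the strong decliners became 0.43. Set against the median of all transcripts, the decliners stood at 0.14, and at 0.11 with quantile normalization. A shift of whole arrays does not move this difference.

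A single value per array gave its place along the control course. Each array was projected on the line from the control L3 mean, placed at 0, to the control 36h mean, placed at 1. The Cbt arrays at 24h lay at 0.595, 0.544, 0.515 and 0.620, and the control arrays at 24h at 0.698, 0.668, 0.674 and 0.715. Along this line every Cbt array lay nearer to the control L3 mean than any control array at 24h did. The distance of an array from the line was not measured. The means were 0.569 ± 0.048 and 0.689 ± 0.022 (SD, n = 4), a difference of -0.120 (two-sided exact permutation test, p = 0.0286, the smallest that 4 against 4 arrays can give).

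At L3 the Cbt arrays lay between -0.011 and 0.017, close to the control arrays that set the origin. At 36h they lay between 0.842 and 0.933, below 1. The E2F1DP arrays at 24h, for reference, lay between 0.295 and 0.370, below all Cbt arrays.

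**Figure D3:**
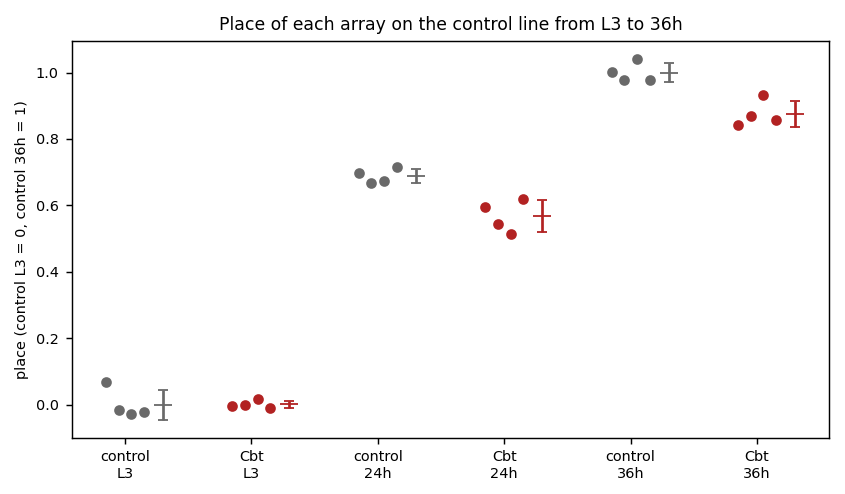
Place of each array on the line from the control L3 mean (0) to the control 36h mean (1), in control and Cbt wings at L3, 24h and 36h. Points are arrays and bars show the mean ± SD; at 24h the Cbt arrays (0.515 to 0.620) lie below the control arrays (0.668 to 0.715).

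Of the 17 transcripts tied to 1 gene, that of sle passed the test at 24h, a share near the 7.81% called over all transcripts. The slender lobes gene (sle) encodes a nuclear protein needed for normal nucleolar organisation in the fly brain. The transcript (FBtr0082231) measured 11.25, 10.94, 11.06 and 11.00 in control and 12.03, 12.02, 12.03 and 12.04 in Cbt wings, a change of 0.97 (SE 0.20, limma adjusted p = 0.00114). The groups did not overlap, and the 4 Cbt arrays were nearly identical. Once slide entered the model the change was 0.81 and the call was lost (limma adjusted p = 0.152), as it was without the 4 arrays with outlying medians (0.0577). These were Cbt replicates 1 and 2, with the highest medians of their group, and control replicates 3 and 4, with the lowest and highest of theirs. They were picked after the data were seen, and outlying is meant in this sense only.

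In control wings sle stood at 12.81 ± 0.18 at L3 and fell to 10.80 ± 0.30 at 36h (SD, n = 4). In Cbt wings it stood at 12.58 ± 0.05 at L3 and 11.14 ± 0.69 at 36h, and neither differed from control by the test (limma adjusted p of 0.956 and 0.429). The change at 24h exceeded that at L3 by 1.20 (SE 0.28, limma adjusted p = 0.011). This stage difference did not pass with median centring (1.01, adjusted p = 0.098), with the slide in the model (0.77, 0.852) or without the 4 arrays with outlying medians (0.0772). The E2F1DP mean at 24h was 12.41 ± 0.09 (n = 4), against the same control arrays, and the Cbt mean of 12.03 ± 0.01 differed from it by -0.38 (SE 0.20, limma adjusted p = 0.187), in a direct contrast that 23.4% of all transcripts passed.

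Some of the transcripts are listed under several genes because 1 mRNA carries several reading frames, and 2 of these 27 passed, again near the overall 7.81%. The transcript of Rad1 and Sws1 (FBtr0077747) measured 10.09, 9.97, 9.55 and 10.00 in control and 10.48, 10.44, 10.49 and 10.54 in Cbt wings, a change of 0.59 (SE 0.14, limma adjusted p = 0.00441). Rad1 is a subunit of the ring-shaped clamp that signals DNA damage to the checkpoint kinases. Every Cbt array was above every control array, and control replicate 3 was the lowest. The call did not hold with arrays shifted to a common median (change 0.39, limma adjusted p = 0.111), nor with only the compared groups (0.117), array weights (0.0518), the slide in the model (0.0515) or the 4 outlying arrays left out (0.117).

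This transcript too declined in control wings, from 11.70 ± 0.11 at L3 to 9.29 ± 0.17 at 36h (SD, n = 4). At L3 and 36h the Cbt changes were 0.02 and 0.06 and did not pass the test. At 24h the Cbt mean of 10.49 ± 0.04 was lower than the E2F1DP mean of 11.76 ± 0.17 by a direct contrast of -1.28 (SE 0.14, limma adjusted p = 2.37e-08).

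The transcript of CG10570 and CG42502 (FBtr0081122) had the largest change among those with a name. It measured 7.66, 9.36, 5.97 and 7.87 in control and 10.45, 10.45, 11.06 and 10.15 in Cbt wings, a change of 2.81 (SE 0.56, limma adjusted p = 0.000816). The groups did not overlap, but the control arrays spanned more than 3 log2 units. Without the 4 arrays with outlying medians the change was 2.09 and the call was lost (limma adjusted p = 0.0869), as it was once slide entered the model (2.19, limma adjusted p = 0.197) and with only the compared groups (0.0555).

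Its control level was 10.63 ± 0.70 at L3, 7.72 ± 1.39 at 24h and 8.02 ± 0.87 at 36h (SD, n = 4). In Cbt wings it was 11.56 ± 0.18, 10.53 ± 0.38 and 7.67 ± 0.63. The Cbt change at 36h was -0.35 and smaller than that at 24h by -3.16 (SE 0.79, limma adjusted p = 0.0261). That stage difference was lost in 5 alternatives, with adjusted p from 0.0679 without Cbt replicate 3 and 0.0744 without control replicate 3 to 1.00 with the slide in the model. Control and Cbt means thus lay far apart at 24h and within 1 SD of each other at 36h.

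**Figure D4:**
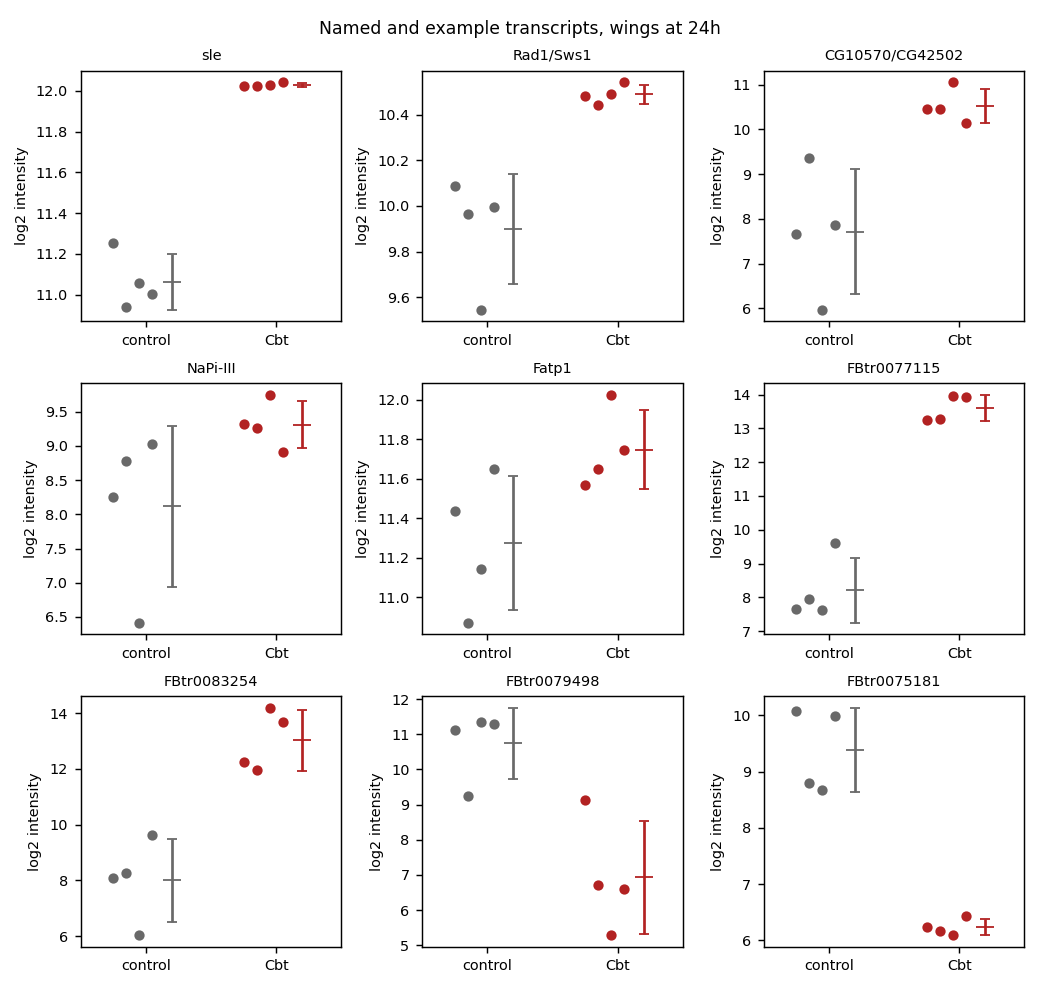
Log2 intensity on each control and Cbt array at 24h (points, with mean ± SD) for the 3 named transcripts that passed the test, NaPi-III and Fatp1, which did not, and the 4 unnamed examples. Each panel has its own axis, which does not start at 0; control and Cbt points overlap in the NaPi-III and Fatp1 panels alone.

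The nearest to passing among the others were a phosphate and a fatty acid transporter gene. NaPi-III, a sodium-phosphate cotransporter by its name, measured 8.25, 8.79, 6.42 and 9.02 in control and 9.32, 9.27, 9.75 and 8.91 in Cbt wings, a difference of 1.19 (SE 0.40, limma adjusted p = 0.0651). The groups overlapped, and control replicate 3 was far below the rest. NaPi-III passed with the replicate block (limma adjusted p = 0.0478) and without control replicate 2 (0.0345) or 4 (0.0187), fits that keep control replicate 3. In E2F1DP wings at 24h its mean was 12.68 ± 0.21, against 9.31 ± 0.34 in Cbt wings (SD, n = 4), a direct contrast of -3.37 (SE 0.40, limma adjusted p = 1.38e-07).

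Fatp1 encodes a protein that takes up fatty acids. Its transcript measured 11.43, 10.87, 11.14 and 11.65 in control and 11.57, 11.65, 12.02 and 11.75 in Cbt wings, a difference of 0.47 (SE 0.17, limma adjusted p = 0.0925). The highest control array lay above the lowest Cbt array. Without control replicate 4 the difference was 0.60 and passed (limma adjusted p = 0.0287). Unlike sle, Fatp1 increased in control wings, to 13.78 ± 0.19 at 36h, where Cbt wings had 13.27 ± 0.43 (SD, n = 4). The Cbt difference at 36h, -0.51, was below that at 24h by -0.99 (SE 0.24, limma adjusted p = 0.0219). This call was lost in 6 alternatives: with median centring (0.0802), only the compared groups (0.231) or the slide in the model (0.942), and without Cbt replicate 3 (0.0672), control replicate 2 (0.0563) or control replicate 3 (0.0527).

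Of the 16 transcripts with 1 gene that did not pass, 11 had a difference above 0 and 5 below, from -0.42 to 1.19, and in none were the groups apart. With sle counted, 1 of the 17 had groups apart, against 9.53% of all transcripts, called or not. Chromatin genes were among them: the difference was 0.13 (SE 0.11) for HDAC3, a histone deacetylase, 0.27 (SE 0.18) for kis, a chromatin remodeller, and 0.18 (SE 0.25) for SuUR, which slows replication of heterochromatin. His4r, a histone H4 gene outside the replication-dependent cluster, differed by -0.12 (SE 0.31).

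Genes of the cell surface and cytoskeleton also did not pass. LanA, the laminin alpha chain of the basement membrane, differed by 0.04 (SE 0.21), and alpha-Spec, the alpha chain of spectrin, by -0.08 (SE 0.20). For mio and Wdr24, subunits of the GATOR2 complex that acts on TOR signalling, the differences were -0.04 (SE 0.23) and 0.37 (SE 0.18). Those of the ubiquitin pathway were 0.28 (SE 0.16) for the activating enzyme gene Uba1 and 0.12 (SE 0.14) for rdx, a Cullin-3 adaptor. With SEs between 0.11 and 0.50, small changes of these genes were not detectable with 4 arrays a group.

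The 25 transcripts under several genes that did not pass ranged from -0.73 to 0.25, 11 above 0 and 14 below, and in none were the groups apart. With the passing ones counted, 2 of the 27 had groups apart, against the same 9.53% of all transcripts. The lowest was that of CG32573 and CG42512 at -0.73 (SE 0.36), and the highest that of Tgs1 and moi at 0.25 (SE 0.11). Tgs1 is the methyltransferase that makes the trimethylated cap of small nuclear RNAs, and moi is a telomere capping protein. At 36h, where 4.76% of all transcripts were called higher and 2.53% lower, 3 of the 27 passed. CG5116 and CG42488 were higher in Cbt wings by 0.48 (limma adjusted p = 0.0226), while CG32573 and CG42512 fell by 1.16 (adjusted p = 0.0458) and CG7071 and Muted by 0.36 (adjusted p = 0.0433). None of these 3 passed at 24h.

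**Figure D5:**
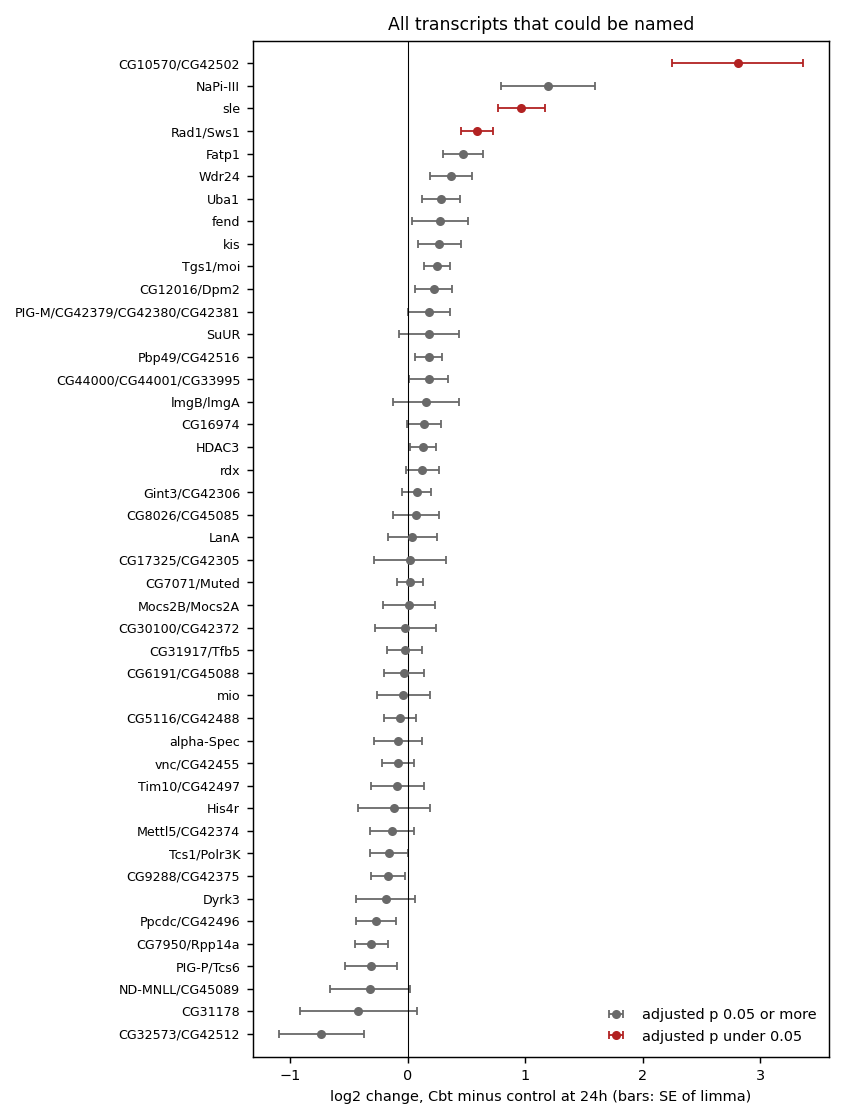
Log2 change of Cbt minus control wings at 24h, with limma's SE as bars, for the 44 transcripts that could be named, ordered by size. The transcripts of sle, Rad1 and Sws1, and CG10570 and CG42502 passed the test, all with a positive change, and none with a negative change did.

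In the plot of all named changes most transcripts lie near 0. The 44 are those that an annotation synonym happened to tie to a gene, and they stand for no pathway. Of 264 entries in the gene lists drawn up for this study, 7 could be matched, so no count over a pathway was possible.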

How the data were processed

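Per the labels, each NimbleGen array carried the Cy3-labelled total RNA of 10 wings, in 1 colour. The authors deposited 1 intensity per transcript and array on a linear scale, made with RMA, per the submitters' processing notes. Its settings, version and gene annotation are not given in the sources used here. The authors' series table holds the log2 of the same deposited values. No further normalization was applied for the main values. The E2F1DP group at L3 has 3 arrays, the other groups 4.

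A model of the 9 groups was fitted to the log2 values of all 35 arrays with limma 3.58.1 in R 4.3.3 (lmFit and eBayes, 26 residual degrees of freedom), so the groups share 1 estimate of spread per transcript. A call needs an adjusted p under 0.05 (Benjamini-Hochberg, all 15473 transcripts). The median SE of the 24h change was 0.235. The exact permutation test used scipy 1.17.1. The fit was tested on simulated data first. Alternatives were another scaling, fewer groups, array weights, slide, position, replicate block, a filter on dim transcripts and leaving out arrays. The slide and position were read from the array file names.

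Named are every transcript tied to 1 gene (the rule), cabut, E2f1 and Dp had they matched, and 4 unnamed examples by size. The transcripts under several genes were added after their IDs were seen, whatever their values. Names come from RefSeq's Release 6 annotation, and no coordinates or sequences were used. The comparison, groups and lists were chosen with earlier results of these data known. Dim means a mean under the 25th percentile.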

Additional observations from a re-analysis of the deposited data

Results flagged for a closer look

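In 7 of 100 groups of 4 arrays, tested over the named and example transcripts, the array medians and the place on the control line, 1 array stood apart by Dixon's ratio of gap to range, which chance alone gives in about 1 of 20 groups. The array was low for fend in Cbt replicate 4 (9.65, others 10.12 to 10.19), HDAC3 in control replicate 2 (13.50, others 13.68 to 13.71), the lmgB and lmgA transcript in control replicate 3 (12.54, others 13.34 to 13.47) and FBtr0079498 in control replicate 2 (9.24, others 11.12 to 11.34). It was high for alpha-Spec in Cbt replicate 4 (13.67, others 12.81 to 12.92), CG31178 in control replicate 2 (7.68, others 5.50 to 5.64) and FBtr0077115 in control replicate 4 (9.62, others 7.62 to 7.95). The array medians were not among the 7, so those called outlying above did not stand apart by this ratio.

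The Cbt change differed between stages, by limma's test of the difference, for 6 of these transcripts. The unnamed ones among them were chosen by the size of their 24h change, which the test reuses. FBtr0079498 was also dim in control wings at L3, which left little room for a fall there. With the slide in the model the difference passed for FBtr0075181 alone of the 6. From 24h to 36h it moved by -0.99 for Fatp1, -3.16 for the CG10570 and CG42502 transcript and -3.86 for FBtr0083254. From L3 to 24h it moved by 1.20 for sle, -3.53 for FBtr0079498 and -2.95 for FBtr0075181.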

How the results depend on the processing

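The 1209 calls at 24h became 443 with only the compared groups in the fit (434 of them shared). With the slide as a term they became 392 (385 shared), where the median SE rose from 0.235 to 0.316. With the slide as a random block they numbered 1220 (1208 shared). Leaving out 1 array gave 849 (without control replicate 3) to 1388 (without control replicate 4), and without the 4 arrays with outlying medians, an alternative chosen after seeing the data, 1050. In every one of 18 alternatives other than the dim filter 256 transcripts stayed higher and 36 lower. The share of higher calls, 76.4%, was 53% with median centring and 68% with quantile normalization. Changes at 24h that differed from L3 numbered 401, and 669 with array weights and 315 to 521 leaving out 1 array. They numbered 65 with the slide as a term and 406 with it as a random block. Those from 24h to 36h numbered 311, and 113 with only the compared groups and 242 to 330 leaving out 1 array. With the slide they numbered 20 as a term and 316 as a random block. Direct differences between Cbt and E2F1DP at 24h numbered 3615, 1968 with only the compared groups and 3093 to 3793 leaving out 1 array. With median centring the median change became -0.068 for decliners, 0.43 for strong decliners, -0.25 for risers and -0.36 for strong risers, since it shifts all transcripts of an array alike. Leaving out 1 array gave 0.53 to 0.73 for strong decliners and -0.11 to 0.03 for risers (above 0 without control replicate 4). The difference in place was -0.137 to -0.102 leaving out 1 array (exact p = 0.0571, the smallest possible) and -0.115 without the 4 arrays (exact p = 0.333, likewise). The replicate block gave 1244 calls. The replicate numbers were not taken as pairs: correlations of same-numbered deviations were 0.10, 0.41, 0.02 and 0.26, and 3 of 4 Cbt arrays correlated best with their own number. The block brought NaPi-III past the threshold (adjusted p = 0.0478). The cause of these shifts was not tested. Slides at 24h held 1 genotype of the pair each, and the number of arrays limits precision.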
